A study of Mus musculus with 2 samples.

Results

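The cells described here are spleen B cells in which transcripts of at least 2 genes from a set of 5 were found together: Egr2, Egr3, Il4i1, Nfkbid and Bcar3. A barcode entered the population if it had 200 to 6000 detected genes, under 10% mitochondrial UMIs (unique molecular identifiers, each counting 1 captured transcript), at least 2 Cd79a UMIs, and no UMI of Cd3d, Cd3e, S1pr3 or Bhlhe41. There were 3534 such cells, 1561 of them in the wild-type library and 1973 in the knockout library, of 26249 barcodes in all. The working name for them is acutely activated B cells, and below they are called gate-positive B cells after the 5 gate genes. The cells were chosen by the values of those gate genes, so every contrast with other B cells in the same libraries is a description and was not tested.

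The series compared spleen immune cells of C57BL/6 mice by droplet single-cell RNA sequencing, a method that tags the 3′ end of each transcript with a cell barcode and a UMI. One library was labelled WT and the other RPA1 conditional knockout (CKO), with RPA1 a subunit of the single-stranded DNA binding complex used in replication and repair, and the series title names its role in T cells. The labels used here give neither the Cre driver, nor the deleted exons, nor the number, age or sex of the animals, and they name no treatment for either library. Barcodes numbered 13291 (WT) and 12958 (CKO), with medians of 5355 and 4616 UMIs, and 12679 and 12610 passed the limits on genes and mitochondrial UMIs. Each genotype is a single library, so the genotypes were not tested against each other, and all intervals below are 95% intervals that cover counting error only.

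A resting mature B cell that meets antigen or a microbial signal switches on immediate early genes within a short time, among them the Egr family of zinc-finger transcription factors and the Nr4a nuclear receptors. Calcium and NF-kB signals then raise surface CD83, the anti-apoptotic A1 proteins encoded by the Bcl2a1 genes, and Myc, which drives growth before division, while the quiescence factor Klf2 is lost. In the spleen most B cells are follicular, and marginal zone B cells, which line the marginal sinus, are kept in a partly primed state.

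Of the gate genes, Egr2 and Egr3 encode immediate early transcription factors, Il4i1 a secreted L-amino acid oxidase, Nfkbid the atypical nuclear IkB protein IkBNS, and Bcar3 an adaptor protein that binds p130Cas. In the GENCODE vM21 annotation of GRCm38 they lie at chr10:67535475-67542188 (Egr2), chr14:70077203-70082614 (Egr3), chr7:44816387-44840809 (Il4i1), chr7:30421732-30428746 (Nfkbid) and chr3:122294136-122530191 (Bcar3), all on the plus strand. Promoter sequence is shown for a pair of gate genes and for 3 genes outside the gate that were higher in gate-positive B cells. Each window shown held a match to a motif listed below. Other windows were read but are not printed, among them those of the gate genes Il4i1 and Bcar3, which held no match. The sequences are the bases before a RefSeq transcription start (GRCm38.p6), 5′ to 3′ on the strand of the gene, and capitals mark matches to the motifs searched, on both strands. The motifs were the 10-base consensus of NF-kB, the SRF CArG box, the cAMP response element TGACGTCA, the AP-1 element TGANTCA and the EGR element GCGNGGGCG. Only the bases before the first GENCODE exon of the same gene in each 250-base window were kept, so the 2 Bcl2a1 stretches stop 64 bases short of their RefSeq start. The Nfkbid and Egr2 stretches, like that of Nr4a1, lie inside the span of their GENCODE gene.
Nfkbid, RefSeq start 2 of 3, chr7:30422156-30422405 (+): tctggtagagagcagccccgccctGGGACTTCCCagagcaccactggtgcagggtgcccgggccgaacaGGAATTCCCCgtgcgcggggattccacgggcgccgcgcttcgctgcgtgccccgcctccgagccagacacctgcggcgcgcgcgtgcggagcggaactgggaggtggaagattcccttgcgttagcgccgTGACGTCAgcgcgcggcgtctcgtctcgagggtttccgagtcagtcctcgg
Egr2, RefSeq start 3 of 5, chr10:67537619-67537868 (+): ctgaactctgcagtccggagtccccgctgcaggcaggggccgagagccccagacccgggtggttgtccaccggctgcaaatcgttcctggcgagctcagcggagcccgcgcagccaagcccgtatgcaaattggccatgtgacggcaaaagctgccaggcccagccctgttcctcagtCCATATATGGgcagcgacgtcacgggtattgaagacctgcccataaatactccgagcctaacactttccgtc
Nr4a1, chr15:101266596-101266845 (+), inside the span of the GENCODE gene: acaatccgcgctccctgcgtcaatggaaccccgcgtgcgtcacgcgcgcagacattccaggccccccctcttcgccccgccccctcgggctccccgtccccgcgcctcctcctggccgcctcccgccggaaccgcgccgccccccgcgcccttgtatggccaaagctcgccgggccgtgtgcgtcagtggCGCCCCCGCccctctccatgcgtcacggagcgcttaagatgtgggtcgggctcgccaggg
Bcl2a1b, chr9:89199023-89199208 (+): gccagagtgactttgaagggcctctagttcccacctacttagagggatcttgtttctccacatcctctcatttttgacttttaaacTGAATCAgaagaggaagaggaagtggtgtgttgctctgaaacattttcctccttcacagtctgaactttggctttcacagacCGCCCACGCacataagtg
Bcl2a1d, chr9:88731915-88732100 (-): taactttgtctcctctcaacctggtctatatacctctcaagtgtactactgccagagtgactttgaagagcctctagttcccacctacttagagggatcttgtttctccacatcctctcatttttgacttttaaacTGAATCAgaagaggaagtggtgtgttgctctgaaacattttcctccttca

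The Nfkbid stretch held 2 NF-kB matches and 1 cAMP response element, whereas the other 2 RefSeq starts of Nfkbid had none of the 5 motifs in the same window. The Egr2 stretch held 1 CArG box, the element bound by serum response factor. Egr2 start 1 held 2 overlapping NF-kB matches and no CArG box. Start 2 held another CArG box, and starts 4 and 5 the same one as start 3. Nr4a1 held 1 EGR match. Both Bcl2a1 genes held the AP-1 match tgaatca and 1 EGR match, which for Bcl2a1d lies in the bases not shown. Over all 32851 promoter windows of the same 250 bases, 7.25% held an NF-kB match, 1.47% a CArG box, 1.55% the cAMP response element, 6.75% an AP-1 match and 4.70% an EGR match. None of the 5 motifs was found in the windows of Il4i1, Bcar3, Nab2 or Vpreb3. The window of Klf2 held 1 EGR match and that of Fcrl5 1 AP-1 match. A match describes letters only and is no evidence of binding. The windows of Bcl2a1b and Bcl2a1d shared an unbroken run of 84 bases. They are near-identical copies, so reads can be split between them and their separate values are uncertain.

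Il4i1 was the gate gene found most often. It had a UMI in 70.3% of gate-positive B cells of the WT library and 68.7% in the CKO library. Egr3 followed with 59.6% and 61.0%, Bcar3 with 54.3% and 54.0%, and Nfkbid with 44.3% and 47.6%. Egr2 was rare, with a UMI in 6.98% and 7.15% of the cells, and it seldom decided membership. The commonest combination was Egr3 with Il4i1 alone, which made up 17.0% of WT and 15.6% of CKO cells, ahead of Il4i1 with Bcar3 (15.2% and 14.0%) and Il4i1 with Nfkbid (12.3% and 11.6%). Most cells sat at the edge of the rule. Exactly 2 gate genes were found in 1096 WT and 1350 CKO cells, 3 in 383 and 498, and 4 or 5 in 82 and 125. Just outside the rule, 2311 WT and 2857 CKO B cells had UMIs of 1 gate gene only, and 2377 and 3505 had none.

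The gate genes differed in how far they were found together at equal depth. With every B cell thinned at random to 2000 UMIs, Egr2 had a UMI in 3.11% of the 676 Egr3-positive WT cells against 0.452% of the 5529 others, and in 3.45% against 0.544% in the CKO library. Other pairs differed less. Nfkbid had a UMI in 9.03% of Bcar3-positive and 7.51% of Bcar3-negative WT cells, and in 9.54% and 8.61% of CKO cells. Il4i1 had one in 20.4% and 17.2% of the same WT classes and 18.5% and 15.4% in CKO. Egr2 given Nfkbid was the weakest in WT, at 0.842% against 0.733%, from 4 cells with both. The CKO library differed there, at 1.81% against 0.780%, from 13 cells with both. Cd83, which the rule did not use, went with Egr3 in the same way: Egr3 had a UMI in 18.2% of Cd83-positive and 9.41% of Cd83-negative WT cells, and in 21.4% and 9.53% of CKO cells. Bcar3 went least with Cd83 in the WT library, at 11.3% and 9.51%, and in the CKO library the shares were 11.9% and 8.21%. Free RNA bounds how low a share can be read. In T-gated cells (at least 2 UMIs of Cd3d and Cd3e together and none of Cd79a), taken as the background, Il4i1 had a UMI in 1.33% of WT and 1.10% of CKO cells and Bcar3 in 0.503% and 0.552%, at medians of 6829 and 6143 UMIs. Nfkbid had a UMI in 11.4% of WT T-gated cells, a cell type that also expresses this gene. At least 2 gate genes were found in 2.13% of WT and 2.07% of CKO T-gated cells.

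The share of gate-positive cells differed little between libraries and depended on depth in both. Among B cells that passed all other terms of the rule, 24.98% (23.9 to 26.1%, 1561 of 6249) were gate-positive in the WT library and 23.7% (22.8 to 24.6%, 1973 of 8335) in the CKO library, a ratio of 0.948. Over all retained cells the shares were 12.3% and 15.6%, and the CKO library held 724 T-gated cells against 3381 in WT. In cells of 3000 to 4000 UMIs, 13.5% of WT and 12.3% of CKO B cells were gate-positive, and above 10000 UMIs 51.8% and 53.8% were. After thinning to 2000 UMIs, 7.95% (7.28 to 8.65%) of WT and 7.83% (7.26 to 8.42%) of CKO B cells still passed, and at 1000 UMIs 2.68% and 2.79%. The intervals of the 2 libraries overlapped at each thinned depth and in each depth range plotted. Reading the cells at fewer UMIs lowered the share in both libraries. The part of cell size in its rise over the depth ranges was not tested.

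**Figure D1:**
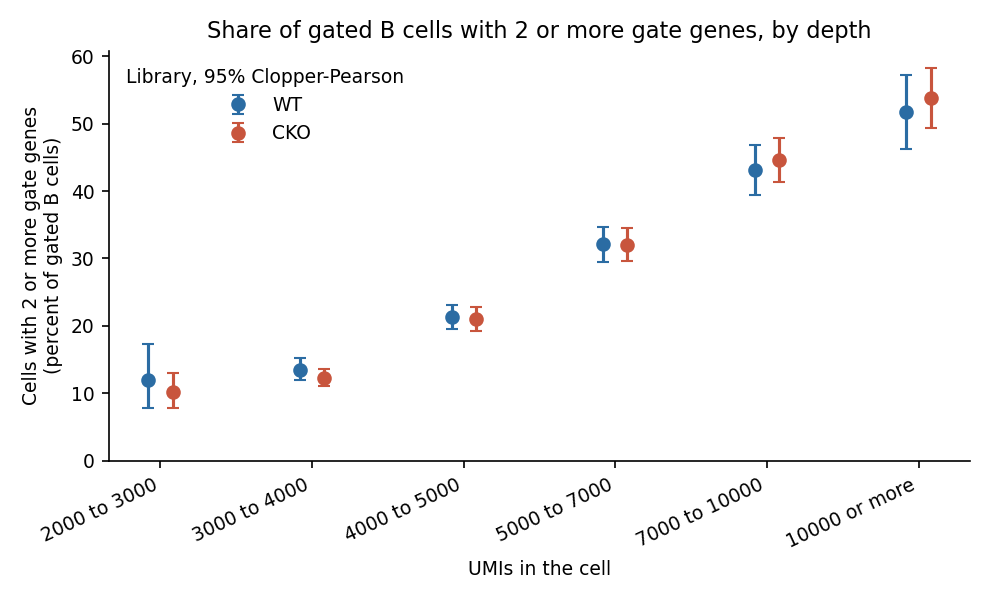
Share of gated B cells with UMIs of 2 or more gate genes (percent, y axis) in ranges of UMIs per cell (x axis), for the WT (blue) and CKO (red) library, with exact Clopper-Pearson 95% intervals; ranges with fewer than 100 cells are not drawn. The share climbs from 13.5% and 12.3% at 3000 to 4000 UMIs to 51.8% and 53.8% at 10000 or more, with both libraries side by side.

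Depth also differed between the classes. Gate-positive cells had a median of 5370 (WT) and 5592 (CKO) UMIs, against 4574 and 4322 for cells with 1 gate gene and 4146 and 3880 for cells with none. Scrublet, a caller of doublets, gave each retained cell a score. The highest scores were marked at a rate set beforehand from the number of barcodes, 10.6% in WT and 10.4% in CKO. Marked cells made up 12.6% and 15.1% of gate-positive cells against 8.08% and 7.87% of cells with none. Values below are therefore sums of UMIs over a class per 1000000 UMIs (CPM), which remove the depth of the class but not the effect of depth on who enters it. For that, ratios are also given with the gate read on cells thinned to 2000 UMIs. The part of doublets and of cell size in the contrasts was not tested.

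The whole contrast was small in extent. Of 5687 genes measured in the WT library (at least 20 CPM in either class), 2.43% were at least 1.5-fold higher in gate-positive cells than in B cells with no gate gene, and 0.932% were at least 1.5-fold lower. In the CKO library the shares of 5814 genes were 1.77% and 1.41%. Of 5609 genes measured in both, 84 (1.5%) were higher in both libraries and 33 (0.588%) lower in both. These shares include the 4 gate genes that reached the minimum, and they are given as background for the counts below and not as a result.

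**Figure D2:**
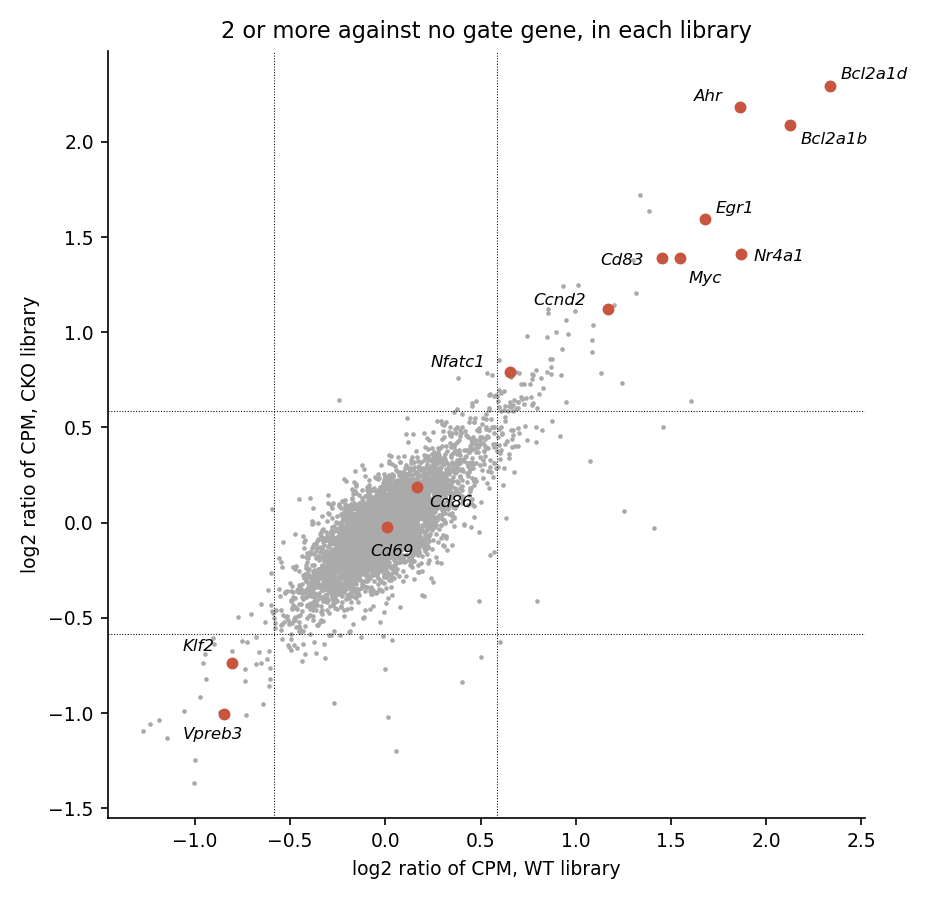
Each point is 1 of 5601 genes measured in both libraries, immunoglobulin segments left out, with the log2 ratio of CPM in gate-positive B cells over B cells with no gate gene in the WT library (x axis) and the CKO library (y axis); dotted lines mark 1.5-fold. Bcl2a1d and Bcl2a1b, Egr1, Nr4a1, Myc and Cd83 lie far up in both libraries, Klf2 and Vpreb3 lie down in both, and Cd69 and Cd86 lie near 0.

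Cd83 is a marker of the label that the rule did not use, and it was higher in both libraries. It was named together with gate genes with earlier results of these data known, so it is no independent check of the label. Cd83 (chr13:43784775-43803132) encodes a surface protein that stabilises MHC class II and CD86 on activated cells. Its level in WT cells was 69.5 CPM with no gate gene, 99.5 with 1 and 191 (182 to 199) in gate-positive cells, and in CKO cells it was 58.0, 73.6 and 152 (145 to 159). The ratio of gate-positive to no gate gene was 2.74 (2.52 to 2.99) in WT and 2.62 (2.42 to 2.83) in CKO, and 3.64 and 3.61 with the gate read at 2000 UMIs. A Cd83 UMI was found in 47.5% and 45.2% of the gate-positive cells. With every cell thinned to 2000 UMIs it was found in 25.2% and 23.6% of them, against 11.8% and 9.93% of cells with no gate gene and 1.04% and 0.555% of T-gated cells.

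Other markers of activation did not go with the label. Cd69, an early activation antigen, stood at 235 CPM in WT gate-positive cells and 233 CPM in cells with no gate gene, a ratio of 1.01 (0.952 to 1.07), and at 0.983 (0.934 to 1.03) in the CKO library. Cd86, a costimulatory ligand, had ratios of 1.12 (0.957 to 1.31) and 1.14 (0.987 to 1.32). Fos had ratios of 0.992 and 1.03, Jun of 0.998 and 1.07, and the costimulatory receptor Cd40 of 0.9998 and 1.04. Of the 12 activation surface genes measured in the WT library and 11 in the CKO library, 1 was at least 1.5-fold higher in each, and that was Cd83. The label of acute activation is thus met by some of its genes and not by others, and the cells are described by their gate and leading genes.

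Few immediate early genes were higher. Of its 21 genes 12 were measured in each library, and 3 were at least 1.5-fold higher in both, with a list median log2 ratio of 0.01 and 0.07 against -0.00 and -0.03 over all genes measured. Those 3 were Egr1, Nr4a1 and Bhlhe40. Egr1, a zinc-finger factor of the same family as the gate genes Egr2 and Egr3, stood at 94.5 against 29.5 CPM in WT cells (ratio 3.21, 2.82 to 3.65) and at 116 against 38.3 CPM in CKO cells (3.02, 2.74 to 3.32). Nr4a1, an orphan nuclear receptor induced by antigen receptor signals, stood at 30.9 against 8.45 CPM (3.65) and at 40.2 against 15.1 CPM (2.66). With the gate read at 2000 UMIs the Nr4a1 ratios were 4.09 and 3.60. Bhlhe40, a basic helix-loop-helix repressor and relative of the excluded Bhlhe41, had ratios of 2.46 and 2.60. Nab2, a corepressor that binds EGR proteins, stood at 22.1 against 8.45 CPM in WT (2.61) and 32.5 against 10.4 CPM in CKO cells (3.11). Junb and Ier2, induced early in many cell types, had ratios from 1.01 to 1.08.

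Among antigen receptor genes the picture was flat except for 1 gene. Of 23 measured B cell receptor signalling genes, only Nfatc1, the calcium-regulated factor NFAT2, was past 1.5-fold, at 1.57 (1.42 to 1.74) in WT and 1.73 (1.60 to 1.88) in CKO cells. The list medians were -0.05 and -0.07. The B cell identity list of 12 genes had no member past 1.5-fold in either library and medians of -0.17 and -0.14. Cd79b, the partner of the gating gene Cd79a in the receptor, was lower, at 1855 CPM against 2406 CPM in WT and 1930 CPM against 2427 CPM in CKO cells. The 12 MHC class II genes had medians of -0.00 and 0.02.

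Some NF-kB genes, most of them feedback inhibitors or the Bcl2a1 pair, were higher. Of 21 measured NF-kB genes 7 were at least 1.5-fold higher in each library, none lower, with a median of 0.34 in both. The same 7 passed in both: Bcl2a1b, Bcl2a1d, Traf1, Tnfaip3, Nfkbie, Nfkbiz and Icam1. Bcl2a1d (chr9:88723285-88731914) ranked first among genes outside the gate, 5.05 (4.01 to 6.44) in WT and 4.91 (4.01 to 6.05) in CKO cells, at 40.4 against 8 CPM and 37.4 against 7.62 CPM. Bcl2a1b (chr9:89199209-89207827) stood at 132 against 30.2 CPM (4.36) and at 120 against 28.2 CPM (4.25). These are the copies whose promoter stretches are printed above, and the pair should be read as 1 signal.

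Tnfaip3 encodes A20, a brake on NF-kB signalling, and had ratios of 1.81 and 2.14. Nfkbie encodes the inhibitor IkB epsilon and had 1.77 and 1.70, and Nfkbiz, a nuclear IkB related to the gate gene Nfkbid, had 1.70 and 1.58. Traf1, an adaptor of TNF receptors, stood at 2.02 and 2.38. The subunit genes were less different: Rel had ratios of 1.38 and 1.44, Nfkb1 of 1.27 and 1.37, and Nfkb2 of 1.12 and 1.18. Nfkbia, encoding IkB alpha, had ratios of 1.08 and 1.09. Of the BCL2 family, 3 of 8 measured genes in WT and 3 of 9 in CKO were past 1.5-fold, the Bcl2a1 pair and Bid, a pro-apoptotic member (1.54 and 1.53). Bcl2 itself had ratios of 1.31 and 1.37, and Mcl1 of 0.899 and 0.935.

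Myc and part of the growth list were higher. Myc (chr15:61985391-61990374) stood at 31.5 CPM in WT cells with no gate gene, 43.3 with 1 and 92.3 (86.5 to 98.4) in gate-positive cells, a ratio of 2.93 (2.58 to 3.32) over none. In the CKO library it stood at 26.8, 37.2 and 70.4 (65.9 to 75.1), a ratio of 2.62 (2.33 to 2.95). Of 25 measured genes of the growth list, 12 were at least 1.5-fold higher in WT and 10 in CKO, with none lower and medians of 0.57 and 0.48. The members named here serve ribosome assembly, RNA modification and polyamine synthesis. Ncl, the nucleolar protein nucleolin, had ratios of 1.61 and 1.52, Gnl3 of 1.80 and 1.73, Mettl1, a tRNA methyltransferase, of 1.93 and 2.09, and Srm, spermidine synthase, of 2.13 and 1.86. None of 14 measured nutrient uptake and glycolysis genes in WT, nor of 15 in CKO, was past 1.5-fold.

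**Figure D3:**
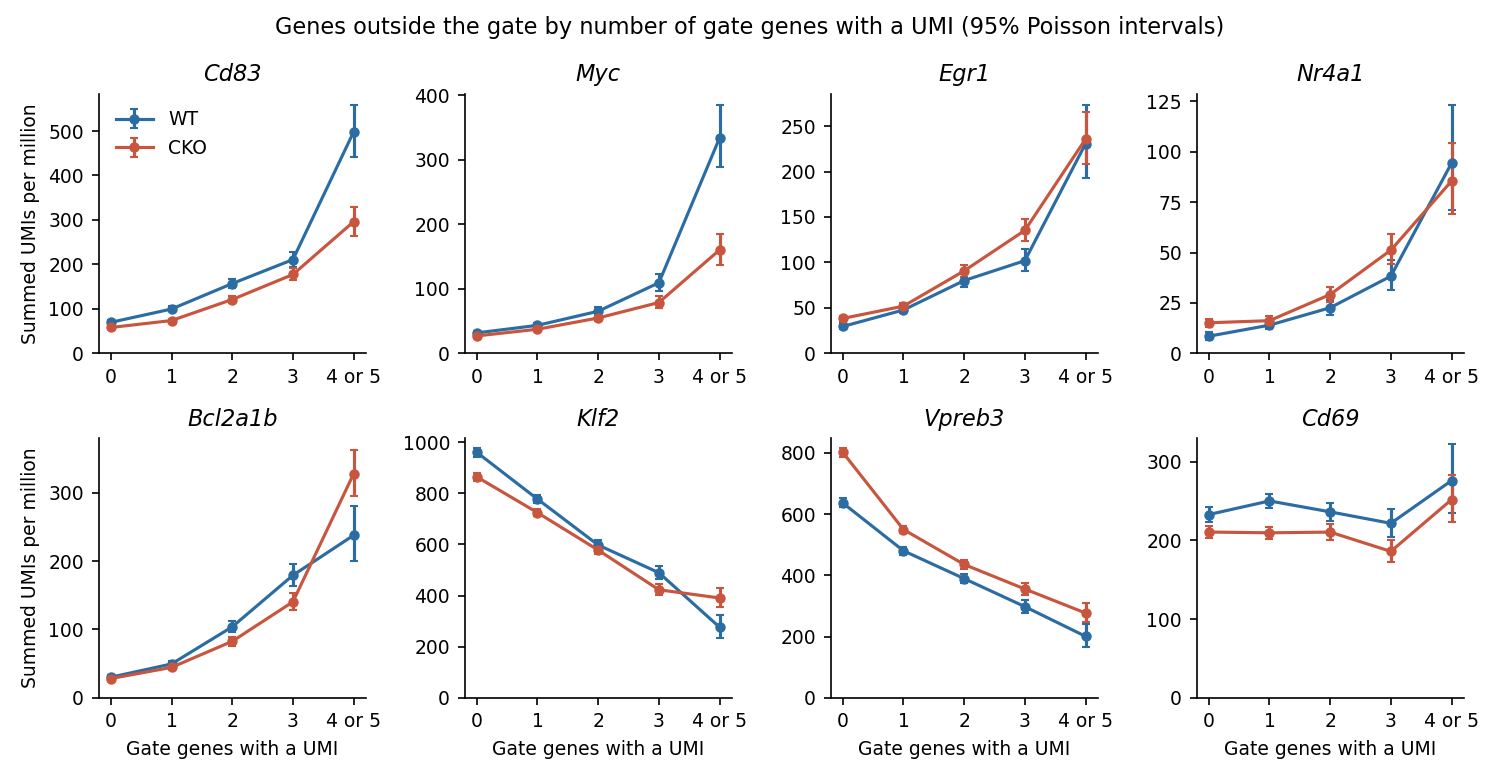
Summed CPM (y axis) of 8 genes outside the gate in B cells with 0, 1, 2, 3 and 4 or 5 gate genes (x axis), WT in blue and CKO in red, with 95% Poisson intervals. Cd83, Myc, Egr1, Nr4a1 and Bcl2a1b are higher with each further gate gene, Klf2 and Vpreb3 are lower, and Cd69 stays between 186 and 276 CPM.

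The same genes varied among the gate-positive cells themselves. In WT cells Cd83 stood at 157 CPM with 2 gate genes, 211 with 3 and 498 (442 to 559) with 4 or 5, and in CKO cells at 121, 177 and 296 (265 to 330). Myc stood at 65.1, 109 and 334 (288 to 385) in WT and at 54.7, 78.6 and 160 (138 to 185) in CKO. These are the cells with the most gate genes, and they are also the deepest, with a median of 6392 and 7335 UMIs. Few cells carry the top values: in the 82 WT cells the 5 with the most Myc UMIs gave 30.4% of its count, and in the 125 CKO cells 23.6%. The CKO over WT ratio of Myc was 0.840 (0.735 to 0.959) with 2 gate genes, 0.720 (0.610 to 0.849) with 3 and 0.480 (0.389 to 0.592) with 4 or 5. Cd83 had 0.771, 0.841 and 0.594 (0.506 to 0.699) in the same classes. Egr1 and Nr4a1 in cells with 4 or 5 gate genes had CKO over WT ratios of 1.02 (0.826 to 1.27) and 0.906 (0.642 to 1.29). Bcl2a1b had 0.796 (0.715 to 0.885) with 2 gate genes, 0.783 (0.691 to 0.888) with 3 and 1.38 (1.13 to 1.69) with 4 or 5, where 5 cells gave 37.5% (WT) and 31.3% (CKO) of its count. With 1 library of each genotype, a difference between animals or libraries cannot be told apart from one between genotypes.

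Of the cell cycle genes, some of the G1 list were higher and none of the S, G2 and M list was. Ccnd2, encoding the D-type cyclin of antigen-stimulated B cells, stood at 132 against 58.5 CPM in WT (2.25, 2.04 to 2.47) and at 163 against 74.8 CPM in CKO cells (2.18, 2.02 to 2.34). Its partner kinase Cdk6 had ratios of 1.57 and 1.55, and Cdk4 of 1.47 and 1.42. Ccnd2 and Cdk6 were the 2 of 6 measured G1 genes past 1.5-fold in each library, with list medians of 0.26 and 0.23. None of 9 measured S, G2 and M phase genes in WT, and none of 12 in CKO, was 1.5-fold higher, and in CKO 5 of the 12 were lower (Mki67, Top2a, Cenpf, Ube2c and Birc5). The medians of this list were 0.39 and -0.03. With cells of 500 to 4000 genes and under 5% mitochondrial UMIs 1 of 9 was lower in CKO, with a median of 0.16, and in WT 2 of 7 were lower, with a median of -0.18. The CKO cells with no gate gene, the class compared with, stood at 63.0 CPM of Mki67 against 20.6 CPM in the same WT class, and 5 of 11 measured genes of the list were at least 1.5-fold higher there in CKO than in WT.

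A few quiescence genes, Klf2 among them, were lower. Of 18 measured quiescence genes 4 were at least 1.5-fold lower in WT and 3 in CKO, none higher, with medians of -0.34 and -0.28. Klf2, which keeps lymphocytes quiescent and recirculating, stood at 960 CPM in WT cells with no gate gene, 777 with 1 and 550 (536 to 565) in gate-positive cells, and at 864, 724 and 518 (506 to 530) in CKO cells. The ratios over none were 0.573 (0.554 to 0.592) and 0.599 (0.582 to 0.617). In cells with 4 or 5 gate genes Klf2 was at 276 (WT) and 390 (CKO) CPM. Klf3 had ratios of 0.625 and 0.598, Tsc22d3, a glucocorticoid-induced leucine zipper protein, of 0.600 and 0.563, and Txnip of 0.662 and 0.724, the last past the limit in WT only. Of 16 homing receptor genes, S1pr4, a sphingosine-1-phosphate receptor, was lower at 0.593 and 0.650, with Itgb7 also past the limit in CKO (0.620). Cd55 had ratios of 0.669 and 0.682. The receptors S1pr1 (0.848 and 0.947) and Ccr7 (0.871 and 0.918) did not pass 1.5-fold.

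Vpreb3, an assembly factor of the B cell receptor that is high in immature and transitional cells, stood at 637 CPM in WT cells with no gate gene and 354 CPM in gate-positive cells, and at 802 and 400 CPM in the CKO library. Its ratios were 0.556 (0.534 to 0.579) and 0.498 (0.482 to 0.515). Others among the 10 ranked lower were Pafah1b3 (0.548 and 0.501), Tent5a, a poly(A) polymerase (0.481 and 0.505), Tifa (0.500 and 0.422), Cdc25b (0.509 and 0.530), Pde2a (0.452 and 0.456) and the sodium pump subunit Atp1b1 (0.499 and 0.388). Ccl5, Gzma and Wfdc21 also ranked there, but Ccl5 and Gzma are products of T and NK cells. Gzma had a UMI in only 1.79% of gate-positive WT cells, 1 of which gave 27.0% of the count. Among the ranked higher genes not yet named, Ahr, the aryl hydrocarbon receptor, had ratios of 3.64 and 4.54, Rilpl2 of 2.30 and 2.21, Rasgef1b of 2.13 and 2.06, and Marcksl1 of 1.998 and 2.16.

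Lists of other B cell states and responses held few members past 1.5-fold. Of the signal feedback genes none of 8 passed in WT, and of 11 in CKO Rgs1, a regulator of G protein signalling, was higher (2.24) and the phosphatase gene Dusp10 lower (0.579). The higher call was lost without Scrublet-marked cells (none of 10) and without cells with other cell type markers (none of 9). Fcrl5, an inhibitory Fc receptor-like protein, was the 1 of 12 inhibitory receptors that passed, at 2.53 and 3.30, and 1.20 and 1.23 with the gate read at 2000 UMIs. The plasmablast list had Irf4, a factor induced by antigen receptor signals, higher at 1.51 and 1.56 and Jchain lower, of 10 measured. In the transitional list Vpreb3 was lower in both libraries, with Cd93 lower in CKO (0.501) and Myb higher in WT (2.10). Of 4 measured germinal centre genes only Eaf2 passed, lower in CKO (0.519), and of 6 BAFF and CD40 receptors only Cd27, lower in CKO (0.612). Among B-1 genes 1 of 4 passed in WT, Anxa2 (1.57), and none of 3 in CKO. In WT none of 3 passed without Scrublet-marked cells, with at least 3 gate genes, or with 500 to 4000 genes and under 5% mitochondrial UMIs. In CKO 1 of 4 was higher with at least 3 gate genes, and 2 of 3 were lower with that stricter filter. Of the immunoglobulin constant genes 4 of 8 were lower in WT and 1 of 7 in CKO, but none of 6 in either library once cells with 2 or more UMIs of other cell type markers were left out. The Jchain call of the plasmablast list was lost in the same way in both libraries, with none of 9 lower. Ifit3, an interferon-induced gene, was lower at 0.573 and 0.626, and Ifitm3 higher in WT (2.38), of 15 interferon genes. The higher call in WT was lost without Scrublet-marked cells and without cells with other cell type markers, and monocyte and macrophage markers summed to 410 CPM in gate-positive WT cells against 197 CPM in cells with none. Hspa1a was higher in CKO (5.85), the 1 of 9 heat shock genes to pass, with none of 8 in WT, and it had a UMI in 2.33% of CKO gate-positive cells. No gene passed among 3 cytokine genes, 6 p53 targets and 8 (WT) or 10 (CKO) genes of the RPA and ATR checkpoint. Cr2 and Fcrl5 were the members past the limit in the follicular (1 of 8) and age-associated (1 of 3) lists.

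Part of the marginal zone list was higher too, but not with the gate read at 2000 UMIs. Of 9 measured genes of the marginal zone B list 5 were at least 1.5-fold higher in each library, Cr2, Cd9, Dtx1, Fcrl5 and Dph5, with medians of 0.59 and 0.68. Cr2, encoding complement receptor CD21, stood at 329 against 208 CPM in WT (1.58) and 372 against 218 CPM in CKO cells (1.70). With the gate read at 2000 UMIs the list median was -0.20 in WT and 0.09 in CKO, none of 7 measured genes was past 1.5-fold, and Cr2 had ratios of 1.06 and 1.33. That setting thins the gate genes only, and S1pr3, Bhlhe41 and the CPM were read at full depth. Of 17 alternatives to the cells or scaling, Fcrl5 and Dtx1 stayed past 1.5-fold in 15 in each library. Cr2 did so in 13 (WT) and 15 (CKO), Cd9 in 13 and 11, and Dph5 in 10 and 14. For the growth list the medians with the gate read at 2000 UMIs were 0.59 and 0.55, and for the NF-kB list 0.52 and 0.64. Fcer2a, the follicular marker CD23, had ratios of 1.001 and 1.06 in the unthinned gate.

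**Figure D4:**
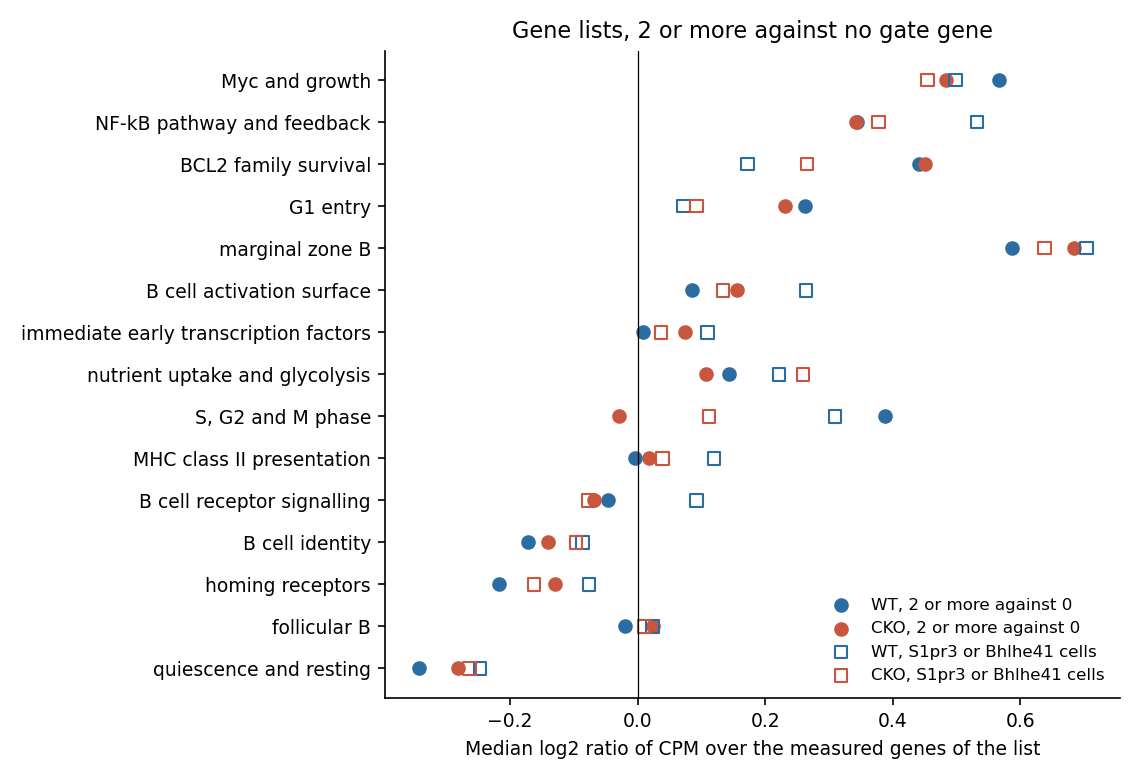
Median log2 ratio of CPM over the measured genes of 15 gene lists (x axis), gate-positive B cells over B cells with no gate gene (filled circles, WT blue and CKO red), and the same among B cells with a UMI of S1pr3 or Bhlhe41 (open squares). The growth and NF-kB lists lie to the right in all 4 sets, and the quiescence list lies to the left in all 4.

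The cells that the rule set aside give a look at B cells it did not use. B cells with a UMI of S1pr3 or Bhlhe41, genes high in marginal zone and B-1 cells, numbered 927 in WT and 1499 in CKO, and 375 (40.5%) and 587 (39.2%) of them had 2 or more gate genes. In these, against the 254 and 412 with none, Cd83 had ratios of 2.50 and 2.28, Myc of 2.61 and 2.41, Bcl2a1b of 3.67 and 2.56, Egr1 of 3.42 and 1.74 and Klf2 of 0.531 and 0.517. Ccnd2 was less different, at 1.04 and 1.44. In this contrast 6.03% of 5824 genes in WT and 2.38% of 5887 in CKO were at least 1.5-fold higher, and 2.99% and 2.65% lower. The same gate genes defined both contrasts, so the likeness is a description. The depth gap was wide, with median UMIs of 8666 against 5671 in WT and 8898 against 5487 in CKO. Neutrophil markers summed to 2423 CPM in the WT cells with 2 or more gate genes, 99.0% from 1 cell, against 35.6 CPM with none. In CKO they summed to 47.8 against 79.4 CPM. The part of that WT cell in the share of higher genes was not tested.

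RNA of other cell types was present at low levels in both classes. T cell markers summed to 68.3 CPM in WT and 50.2 CPM in CKO gate-positive cells, against 73.3 and 52.3 in cells with none, and none of the 11 was at 0. The 1 T cell marker measured, the kinase gene Lck, was higher in gate-positive cells, at 26.1 against 17.3 CPM in WT (1.51) and 30.0 against 16.6 CPM in CKO (1.81). NK cell markers summed to 77.2 and 148 CPM against 143 and 273, with none of the 8 at 0, and dendritic cell markers to 240 and 286 against 311 and 382, with 2 of 11 (Xcr1 and Ccl22) at 0 in WT and none in CKO. Monocyte and macrophage markers summed to 410 and 375 CPM against 197 and 388, and none of the 10 was at 0. Neutrophil markers summed to 1019 and 1009 CPM against 694 and 733, and 1 cell gave 73.9% (WT) and 51.6% (CKO) of the gate-positive count; none of the 8 was at 0. Erythroid markers summed to 25.04 and 44.8 CPM against 28.0 and 830, where 1 cell gave 95.3% of the last. Of the 9 erythroid markers, Alas2, Car1 and Slc4a1 were at 0 in gate-positive cells of both libraries. Of the 5 platelet markers 4 were at 0 in WT and all in CKO. At least 2 T cell marker UMIs were found in 8.20% of WT gate-positive cells against 5.30% of those with none, and in 5.83% against 3.08% in CKO. Every cell with 2 or more UMIs of such markers was then left out, with Itgax, Cst3, Ccl22, Il7r and the haemoglobin genes not counted. This gave Cd83 ratios of 2.81 and 2.74, Myc ratios of 2.56 and 2.56 and Bcl2a1b ratios of 4.18 and 4.03.

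The genotypes differed in few genes of the gate-positive cells. Rpa1, the targeted gene, stood at 31.0 (27.7 to 34.6) CPM in WT and 32.0 (29.0 to 35.2) CPM in CKO gate-positive cells, a ratio of 1.03 (0.889 to 1.20), and at 36.2 and 36.1 CPM in cells with no gate gene. A 3′ tag outside a deleted part would not show a deletion, and the deleted part is not given in the labels. Its partners Rpa2 and Rpa3 had CKO over WT ratios of 1.11 and 0.944. Of 5687 genes, 17 (0.299%) were at least 1.5-fold higher in CKO and 18 (0.317%) lower. In B cells with no gate gene, 1.1% of 5702 genes were higher and 0.368% lower.

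None of the measured genes of the NF-kB, growth or immediate early lists differed by 1.5-fold between the genotypes in gate-positive cells, of 21, 25 and 12. Within that limit Cd83 had a ratio of 0.795 (0.747 to 0.847) and Myc of 0.763 (0.696 to 0.837), and Egr1 was at 1.22 (1.13 to 1.33) and Nr4a1 at 1.30 (1.128 to 1.5). The same ratios in cells with no gate gene were 0.834, 0.851, 1.30 and 1.79. The gate genes themselves were close, for example Egr3 at 195 and 200 CPM and Il4i1 at 244 and 218 CPM. None of the 12 MHC class II genes passed 1.5-fold between genotypes in either class, and their median log2 ratio of CKO over WT was -0.25 in gate-positive cells and -0.25 in cells with none, against 0.04 and 0.06 over all genes. H2-Aa stood at 3877 CPM in WT and 3267 CPM in CKO gate-positive cells, and Cd74, the invariant chain, at 11458 and 9914 CPM.

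Several of the genes ranked by genotype differed alike in both classes of B cell. Aldh7a1, an aldehyde dehydrogenase, stood at 11.8 CPM in WT and 113 CPM in CKO gate-positive cells, a ratio of 9.59 (7.95 to 11.7), and had 10.3 in cells with no gate gene. Mbnl1, a splicing regulator, had ratios of 1.47, short of 1.5-fold, and 1.51, and the chaperone gene Hsph1 of 1.58 and 1.58. On the lower side were Tsc22d3, at 175 and 94.2 CPM (0.537, and 0.572 in cells with none), the MHC class Ib genes H2-Q7 (0.557 and 0.607) and H2-Q6 (0.676, short of 1.5-fold, and 0.644), and the chemokine receptor Cxcr4 (0.611 and 0.546). Irf1, an interferon-induced factor, was at 0.641 (0.580 to 0.709) in gate-positive cells and 0.817 in cells with none. Cdk5rap1 (0.539), Pttg1 (0.604), Serpina3g (0.612) and Zc3h6 (0.621) completed the ranked genes of that side that were spread over many cells.

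**Figure D5:**
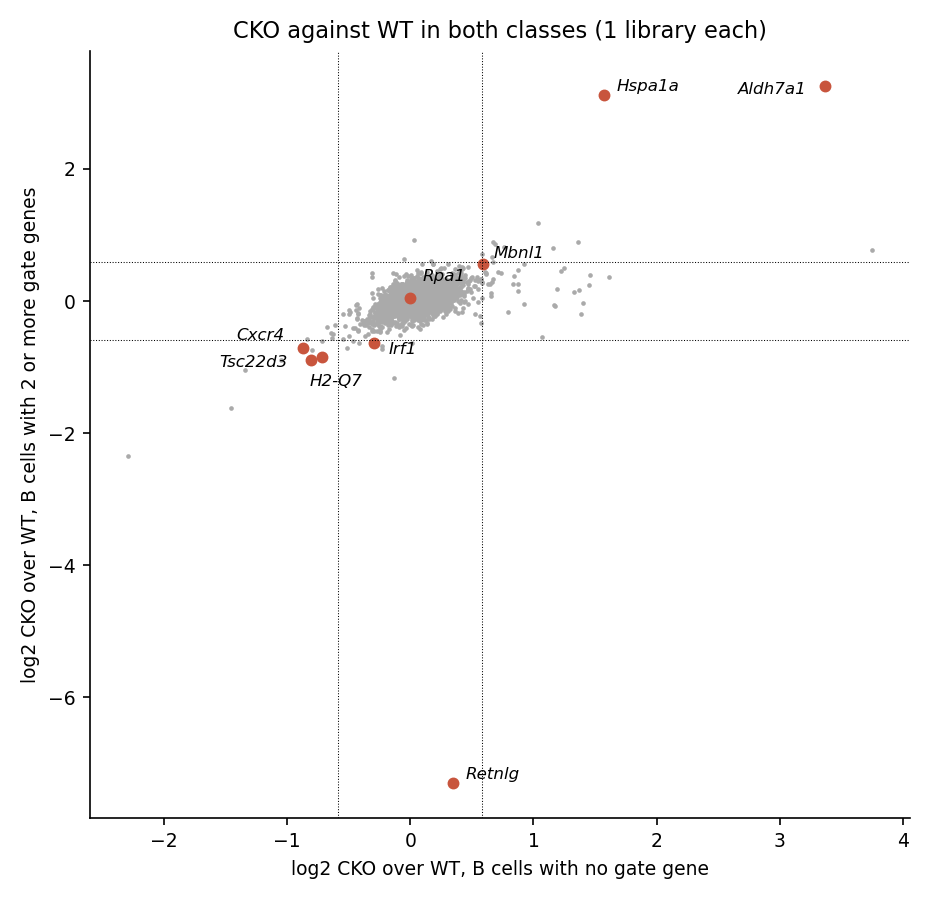
Each point is 1 of 5675 genes with at least 20 CPM in gate-positive B cells of either library, immunoglobulin segments left out, with the log2 ratio of CKO over WT in B cells with no gate gene (x axis) and in gate-positive B cells (y axis); dotted lines mark 1.5-fold. Aldh7a1 is high and Tsc22d3, H2-Q7 and Cxcr4 are low on both axes, Rpa1 is at the centre, and Retnlg stands alone at the bottom because 1 WT cell gave 99.4% of its count.

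Several ranked genes rested on a handful of cells. For Hspa1a, a heat shock gene (20.6 against 2.38 CPM), 1 CKO cell gave 16.7% and 1 WT cell 37.5% of the count. For the neutrophil granule genes Camp and Ltf, 1 WT cell gave 94.1% and 90.9%, and 1 CKO cell 58.4% and 47.3%. Ly6c2 (35.7% from 1 WT cell) and Jchain (38.4%) ranked lower in CKO, while Gzma, Ccl5, Nkg7, Hbb-bt, Hist1h2ap and Hist1h3c ranked higher, the last with a UMI in 1.17% of CKO gate-positive cells. Apart from Hspa1a, these are known mainly as products of granulocytes, monocytes, plasma cells, T or NK cells, red cells or dividing cells. The libraries shared 36 barcode sequences, 6 of them gate-positive in WT and 5 in CKO.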

How the data were processed

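Spleen cells of 1 WT and 1 CKO library (10x 3′ kit version 3.1, per the labels' protocols) were analysed from the UMI count matrices the authors deposited. The file headers name Cell Ranger 6.0.2, whereas the submitters' processing notes name Cell Ranger 5.0.0, Seurat 4.0.3 and mm10. The members, lists and tests were chosen with earlier results of these data known. Counts were summed per class and library with Python 3.11.15, numpy 2.4.6, pandas 2.3.3 and scipy 1.17.1, and drawn with matplotlib 3.10.9. A gene was measured with at least 20 CPM in either class of a contrast and at least 20 counts summed over both classes. It was counted as higher or lower past 1.5-fold. Intervals are exact Clopper-Pearson for shares, Poisson for CPM and conditional binomial for ratios. The 37 gene lists may be named whole. Besides them, the 15 higher and 10 lower genes between gate-positive cells and cells with no gate gene, and the 12 higher and 12 lower between genotypes, were named by the interval bound nearest to 1, taken in the library where it was nearer. Immunoglobulin and T cell receptor segments, mitochondrial, ribosomal protein, Y-linked, gating and unnamed genes were left out of that ranking. Doublets were marked by the highest Scrublet scores at a preset rate in scanpy 1.11.5 (1394 WT and 1455 CKO cells). They were kept, and were left out as an alternative. Thinning drew UMIs at random without replacement with a fixed seed, and the 44 WT and 54 CKO gated B cells under 2000 UMIs were left out there. The counting of called genes was tested on simulated data. Alternatives varied the cell filter, gate, depth, scaling, minimum count and fold. Where cells were left out for other cell type markers, Itgax, Cst3, Ccl22, Il7r and the haemoglobin genes were not counted. Where nothing in the text says otherwise, aligner settings are not given in the sources used here. Some results on items withheld for evaluation are not reported here.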

Additional observations from a re-analysis of the deposited data

How the results depend on the processing

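No paired analysis was possible because the labels give no replicate numbers and each genotype has 1 library. The main values were shares of 24.98% (WT) and 23.7% (CKO) with a CKO over WT ratio of 0.948, 84 genes higher and 33 lower in gate-positive cells of both libraries, and 17 genes higher and 18 lower in CKO than WT. With at least 3 gate genes the shares were 7.44% and 7.47%, with 174 higher, 97 lower, 59 higher in CKO and 51 lower. With the gate read after thinning to 1000 UMIs they were 2.68% and 2.79% (ratio 1.04), with 130, 89, 314 and 322 genes, and after thinning to 2000 UMIs 7.95% and 7.83%, with 56 genes lower in both and 65 and 54 by genotype. Leaving out Scrublet-marked cells gave a CKO share of 22.5%, and leaving out cells with 2 or more UMIs of other cell type markers gave 22.9% and 21.4% and 11 genes higher in CKO. The stricter filter of 500 to 4000 genes and under 5% mitochondrial UMIs gave 28 genes lower in CKO. A minimum of 50 CPM and 50 counts left 35 higher, 19 lower, 8 higher in CKO and 9 lower, no minimum CPM with 5 counts gave 549, 355, 1277 and 994, and a 2-fold limit gave 19, 6, 4 and 5. In alternatives chosen after seeing the data, a gate without Egr3 gave shares of 16.2% and 15.4% and 26 genes higher in CKO, without Il4i1 13.7% and 13.8% with 27 higher and 34 lower in CKO, without Nfkbid 18.5% and 17.4%, and without Bcar3 17.0% and 16.2%. The other 77 values of shares and counts stayed within their interval or within 1.5 times.

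Reversed values among single genes were mostly of genes held by few cells. Against main ratios of CKO over WT of 1.89 (Camp) and 1.65 (Ltf), Camp had 0.0881 under the stricter filter, 0.0225 with 3 gate genes, 0.745 without Egr3 and 0.768 without Bcar3 in the gate. Ltf had 0.113, 0.0354, 0.901 without Scrublet-marked cells, 0.928 without cells with other markers, and 0.885, 0.748, 0.861 and 0.876 with Egr3, Il4i1, Nfkbid or Bcar3 dropped from the gate. Ly6c2 had 1.12 with 3 gate genes, 1.21 and 2.25 after thinning to 1000 and 2000 UMIs and 1.36 in cells of 3000 to 10000 UMIs. Jchain had 1.04 with 3 gate genes, and Hist1h3c had 0.655 in cells of 3000 to 10000 UMIs and 0.601 without Bcar3. After thinning to 1000 UMIs the WT marginal zone median was -0.15, Fcrl5 had 0.924 (WT) and 0.802 (CKO), Cd9 0.447 and Dph5 0.985 (both WT), and by genotype Hspa1a had 0.512, Ccl5 0.831 and Nkg7 0.768. After thinning to 2000 UMIs that median was -0.20 and Cd9 had 0.917 and 0.959. The cause was not tested. Of the named genes higher in gate-positive cells, 22 of 30 in WT and 24 of 30 in CKO stayed past 1.5-fold in each of the 17 alternatives to the cells or scaling, as did 9 of 15 and 8 of 14 lower ones. By genotype 1 of 11 higher and 5 of 11 lower ones did. Depth limits the share, and 1 library per genotype limits every difference between genotypes.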

Other observations

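Y-linked genes were left out of the ranking, and the following values were chosen after they were seen. Eif2s3y, which encodes a translation initiation factor subunit, stood at 85.8 CPM in WT and 16.9 CPM in CKO gate-positive cells (0.197), and had a ratio of 0.204 in cells with no gate gene. Ddx3y, another Y-linked gene, stood at 84.6 and 84.5 CPM in gate-positive cells, a ratio of 0.999.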
